A study of Mus musculus with 18 samples.

Results

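Fgf21, Gdf15, Adm2 and Stc2 are 4 genes for hormone-like proteins that cells secrete under stress. They were picked by symbol, 4 of the 38924 genes in each library's table, for their levels across the groups of the study, so those levels are given as a description and no test was run on them. RNA bound to tagged ribosomes was sequenced from the spinal cord of 18 mice. In this method, RiboTag, Cre recombinase turns on a haemagglutinin (HA) tag on the ribosomal protein Rpl22, and an antibody to the tag pulls down the ribosomes of the cells that made Cre together with their mRNA. Cre came from the Chat locus, which is active in cholinergic neurons, chiefly motor neurons in the cord. P278KY is a dominant change in Gars, whose enzyme charges tRNA with glycine and is mutated in an inherited motor neuropathy.

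Every mouse was 8 weeks old, carried the Rpl+/- genotype of the tag allele and had the mixed background B6;CASTxB6.129. Cre P278KY mice were Chat+/- and P278KY+/- (n = 3). Cre WT mice were Chat+/- with normal Gars (n = 4). NoCre P278KY mice were Chat+/+ and P278KY+/- (n = 6), and NoCre WT mice were Chat+/+ with normal Gars (n = 5); both lack tagged ribosomes, so their libraries measure RNA that comes down without the tag. Cre mice have 1 Cre-bearing Chat allele that NoCre mice lack, so Cre and that allele cannot be told apart. In such bulk material, fewer cells of a type and less RNA per cell cannot be told apart either.

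Fgf21 is best known as a hormone of the fasting liver and of muscle with failing mitochondria, and it signals through FGF receptors that need the co-receptor beta-Klotho (Klb). Gdf15 is a distant member of the TGF-beta family that acts on food intake through the receptor Gfral, paired with Ret, in the hindbrain. Adm2, also called intermedin, is a peptide of the calcitonin and adrenomedullin family that acts through Calcrl with a Ramp partner. Stc2, a glycosylated stanniocalcin, blocks the protease Pappa and so keeps insulin-like growth factors bound. In cultured cells these genes are known to be raised by stress that starves the ribosome of amino acids or burdens the endoplasmic reticulum, through the transcription factor Atf4 and its partners.

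The 4 genes lie on 4 chromosomes, so their 250 bases before the start of transcription are shown to compare what they share in sequence (RefSeq, GRCm38.p6; all 4 matched by symbol). The windows are chr7:45615491-45615740 on the minus strand for Fgf21, chr8:70632457-70632706 on the minus strand for Gdf15, chr15:89322470-89322719 on the plus strand for Adm2 and chr11:31370062-31370311 on the minus strand for Stc2, where RefSeq puts the start at 31370061 and GENCODE at 31370074. Each is written 5′ to 3′ on the gene's strand and ends at the base before the start, and capitals mark the motif matches described next.
Fgf21: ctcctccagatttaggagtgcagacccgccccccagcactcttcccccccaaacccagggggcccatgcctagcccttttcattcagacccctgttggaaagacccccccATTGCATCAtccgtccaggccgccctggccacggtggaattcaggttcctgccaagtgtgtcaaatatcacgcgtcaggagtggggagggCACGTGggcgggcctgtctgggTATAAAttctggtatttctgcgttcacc
Gdf15: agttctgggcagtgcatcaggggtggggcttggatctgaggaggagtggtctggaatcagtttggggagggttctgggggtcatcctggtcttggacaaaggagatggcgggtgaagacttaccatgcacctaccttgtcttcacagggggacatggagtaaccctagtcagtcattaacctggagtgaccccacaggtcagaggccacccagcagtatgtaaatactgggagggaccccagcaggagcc
Adm2: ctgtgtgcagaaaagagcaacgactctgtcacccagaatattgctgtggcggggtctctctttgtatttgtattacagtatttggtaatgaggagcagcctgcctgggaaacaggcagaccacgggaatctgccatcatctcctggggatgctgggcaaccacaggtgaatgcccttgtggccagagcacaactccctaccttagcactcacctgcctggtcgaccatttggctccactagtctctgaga
Stc2: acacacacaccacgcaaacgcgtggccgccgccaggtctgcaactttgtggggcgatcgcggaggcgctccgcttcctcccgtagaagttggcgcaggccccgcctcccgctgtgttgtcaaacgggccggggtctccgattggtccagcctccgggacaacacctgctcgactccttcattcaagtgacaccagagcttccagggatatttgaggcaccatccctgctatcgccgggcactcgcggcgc

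Searched for on both strands were TGATGNAA, a composite site that Atf4 is known to bind with a C/EBP partner, TGCAAT, the core of a site for C/EBP and Ddit3 dimers, the cyclic AMP response core TGACGT, the E-box CACGTG and the TATA box TATAAA. Only the Fgf21 window held any of them. Its composite site reads TTGCATCA on the gene's strand and begins 139 bases before the start. It overlaps a match to TGCAAT that begins 1 base earlier, at 140 bases before the start. The E-box of Fgf21 begins 50 bases and its TATA box 28 bases before the start. Of 32851 RefSeq windows of the same length, 3.45% hold the composite, 7.32% the TGCAAT core, 6.47% the TGACGT core, 6.02% the E-box and 12.4% the TATA box. The windows of Gdf15, Adm2 and Stc2 hold none of these letters, which says nothing of sites elsewhere. RefSeq has 2 windows for Gdf15, and only the one at the annotated gene start, 70632456, was searched. The windows of Fgf21, Gdf15, Adm2 and Stc2 are 59.6%, 56.4%, 52.8% and 64.4% G or C.

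Each library summed to between 15461440 and 18944769 counts (Cre P278KY), between 14659488 and 24028649 (Cre WT), between 9876808 and 14450144 (NoCre P278KY) or between 8177758 and 11480402 (NoCre WT). The labels' index sequences occur once among 10 libraries and are used again in the other 8. All 3 Cre P278KY libraries are in index set 1, with 2 of the 4 Cre WT libraries, so values within that set are given too. Chat, the check on the Cre label, was 97.8 to 120 CPM in Cre P278KY libraries, 80.9 to 169 in Cre WT, 1.93 to 3.58 for NoCre P278KY and 5.87 to 12.9 for NoCre WT (CPM, reads scaled to a common library total by the TMM method, a trimmed mean over genes). Gars was 274 ± 23.1 CPM in Cre P278KY (SD, n = 3), against 139 ± 29.3 in Cre WT (SD, n = 4), with a log2 fold change of 1.01 ± 0.19 SE (edgeR quasi-likelihood test, adjusted p = 0.0219); the call was lost without any 1 of Cre P278KY replicates 1 to 3 or Cre WT replicate 4 (adjusted p 0.0611 to 0.152). The tables hold no alleles, so Gars does not check the P278KY label. Of 14717 genes tested between the Cre groups, 342 were called (2.32%), 179 higher and 163 lower in Cre P278KY, or 93 and 55 with library size as the only scaling.

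All 4 hormone genes were higher in Cre P278KY than in Cre WT libraries, with no overlap between the groups. The contrast served to pick them, and 8.20% of the genes tested stood apart in this direction. Fgf21 went furthest: Cre P278KY replicates 1, 2 and 3 held 2173, 1730 and 2015 reads, or 103, 70.6 and 138 CPM. Cre WT replicates 1 to 4 held 3, 2, 2 and 1 reads, or 0.187, 0.165, 0.0609 and 0.0430 CPM. A transcript that was barely caught in WT precipitates was thus among the better represented ones in each P278KY precipitate. The means were 104 ± 33.8 CPM in Cre P278KY (SD, n = 3), against 0.114 ± 0.0724 in Cre WT (SD, n = 4). Reads pooled over each group put Cre P278KY 1035-fold above Cre WT (95% counting interval 525 to 2399), and such intervals cover counting error only, since amplified reads are not independent molecules. On the log2 CPM scale with a prior count of 2, the difference was 8.70 ± 0.35 SE, and within index set 1 it was 8.34.

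**Figure D1:**
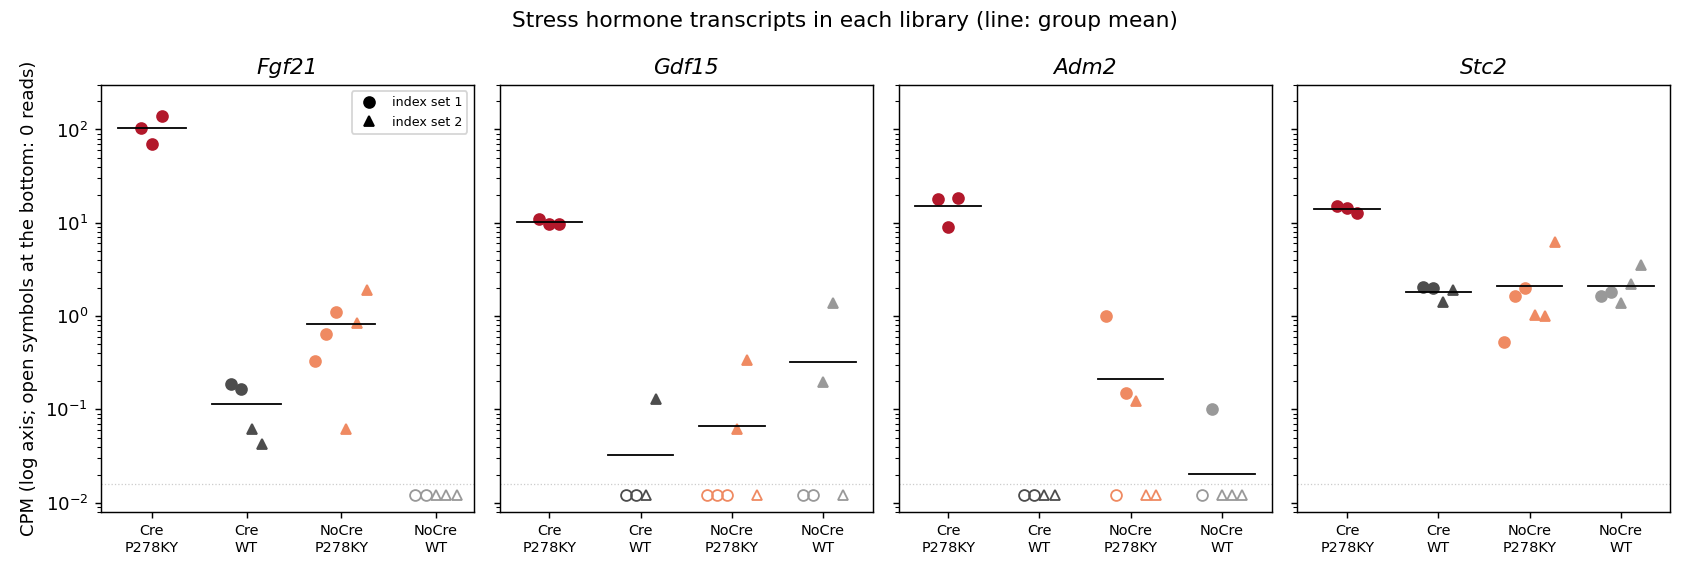
CPM of each hormone gene (log axis) in every library, by group; circles are index set 1, triangles index set 2, lines group means, and open symbols at the bottom have 0 reads. All 3 Cre P278KY libraries lie above every other library for each of the 4 genes, while Stc2 also has 0.533 to 6.28 CPM in the other groups.

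Gdf15 and Adm2 had few or no reads outside the Cre P278KY libraries. Gdf15 had 230, 236 and 143 reads in Cre P278KY replicates 1 to 3 (10.9, 9.63 and 9.81 CPM). In Cre WT it had none in replicates 1, 2 and 3, and 3 reads in replicate 4 (0.129 CPM). The P278KY values lay close together, at 10.1 ± 0.685 CPM (SD, n = 3). The pooled ratio to Cre WT was 284 (counting interval 96.8 to 1381), and the difference on the log2 CPM scale was 6.00 ± 0.25 SE, or 6.25 within index set 1.

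Gdf15 has 2 annotated transcripts, and the weighted transcript length deposited with each count tells which of them the reads were assigned to. In Cre P278KY replicates 1, 2 and 3 that length was 1401, 1380 and 1397 bases, against 1380 bases for the 3-exon transcript Gdf15-202 and 1545 bases for the 2-exon transcript Gdf15-201. The estimate thus gave Gdf15-202 87.0% of Gdf15 transcripts in replicate 1, all of them in replicate 2 and 89.7% in replicate 3. The promoter window shown for Gdf15 was not matched to either transcript. Fgf21 and Adm2 have 1 annotated transcript each, with 3 exons.

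Adm2 had 380, 220 and 266 reads in Cre P278KY replicates 1 to 3 (18.0, 8.98 and 18.3 CPM), and none in the 4 Cre WT libraries. Replicate 2, the lowest, was also the lowest for Fgf21. The Cre P278KY mean was 15.1 ± 5.28 CPM (SD, n = 3), and no reads in Cre WT allow a level of up to 0.0356 CPM, taking 3 counts in the pooled group as the floor. Against that floor Adm2 was at least 404-fold higher in Cre P278KY. The difference on the log2 CPM scale was 6.75 ± 0.33 SE and, with no Adm2 reads in Cre WT libraries of either index set, the same within set 1.

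Stc2 stood apart from the other 3 in having 24 to 46 reads in every Cre WT library. Its levels were 15.0, 14.6 and 12.6 CPM in Cre P278KY replicates 1 to 3 (317, 357 and 184 reads), against 2.06, 1.98, 1.40 and 1.89 CPM in Cre WT replicates 1 to 4 (33, 24, 46 and 44 reads). The lowest P278KY library stood far above the highest WT library, and spread within each group was small. The means were 14.1 ± 1.27 CPM in Cre P278KY (SD, n = 3), against 1.83 ± 0.294 in Cre WT (SD, n = 4), with a pooled ratio of 8.17 (counting interval 6.85 to 9.80). The difference on the log2 CPM scale was 2.86 ± 0.14 SE, or 2.72 within index set 1.

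Levels of different genes can be compared only per length, as TPM, a share of all transcripts that the authors deposited. In Cre P278KY libraries Fgf21 averaged 185 ± 12.1 TPM, Adm2 23.4 ± 5.05, Gdf15 11.9 ± 3.11 and Stc2 5.65 ± 2.00 (SD, n = 3). This order held in each of the 3 libraries, and no neighbours in it overlapped. In Cre WT libraries Stc2 led at 0.733 ± 0.266 TPM, followed by Fgf21 at 0.178 ± 0.0660 (SD, n = 4), while Gdf15 was listed at 0 in 3 of 4 libraries and Adm2 in all 4. Fgf21 at 171 to 194 TPM in Cre P278KY exceeded Chat, the marker enzyme of these neurons, at 40.3 to 69.3 TPM. It overlapped Gars at 145 to 210 TPM and Atf4 at 159 to 224 TPM. Fgf21 was in the top 1.93% to 3.27% of genes with a TPM above 0 in these libraries, Adm2 in the top 15.2% to 24.0%, Gdf15 in the top 27.8% to 30.4% and Stc2 in the top 39.3% to 45.4%.

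**Figure D2:**
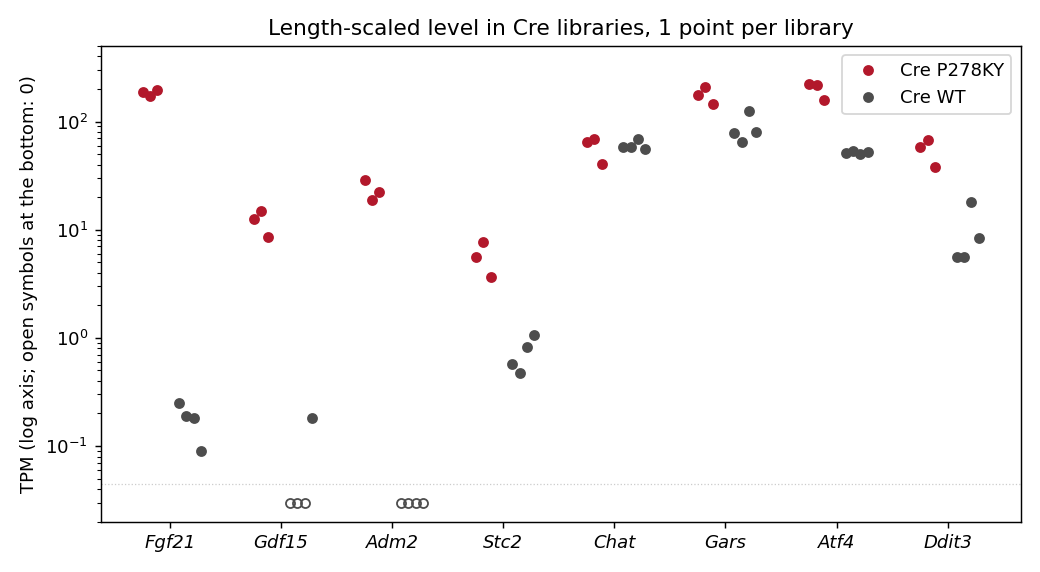
TPM (log axis) of the 4 hormone genes and of Chat, Gars, Atf4 and Ddit3 in Cre P278KY (red, left of each pair) and Cre WT libraries (grey), 1 point per library; open symbols at the bottom are listed at 0. Fgf21 is at 171 to 194 TPM in Cre P278KY, overlapping Gars and Atf4 there, while Chat is at 40.3 to 69.3 TPM there, overlapping Cre WT.

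Whether the hormone transcripts came down with tagged ribosomes is read from the NoCre libraries of mutant mice. All 4 were higher in Cre P278KY than in every NoCre P278KY library, as were 28.3% of the 17133 genes tested between these groups. Fgf21 averaged 104 ± 33.8 CPM in Cre P278KY (SD, n = 3) and 0.818 ± 0.654 in NoCre P278KY (SD, n = 6), a pooled ratio of 148 (counting interval 113 to 198). The NoCre mean was thus 0.787% of the Cre mean for Fgf21, and it was 0.653% for Gdf15 and 1.41% for Adm2. The same percentage was 2.74% for Chat, 3.14% for the choline transporter gene Slc5a7 and 2.27% for the motor neuron filament gene Prph, which mark the tagged cells. In WT mice Fgf21 had 8 reads with Cre and 0 without, at least 1.36-fold higher with no overlap, as 22.5% of genes stood apart in this direction. In P278KY mice the NoCre percentage of Stc2 was 14.8%, with 2.08 ± 2.12 CPM in NoCre P278KY (SD, n = 6) and a pooled ratio of 8.87 (counting interval 7.36 to 10.8). In WT mice the Stc2 levels with and without Cre overlapped, at 1.83 ± 0.294 CPM in Cre WT (SD, n = 4) and 2.11 ± 0.828 in NoCre WT (SD, n = 5), a pooled ratio of 0.882 (counting interval 0.671 to 1.17).

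Summed markers of some other cell types differed between the Cre groups as well. Summed over 10 skeletal muscle markers, the level was 5.76 to 11.5 CPM in Cre P278KY, against 23.4 to 133 in Cre WT, and over 10 oligodendrocyte markers it was 712 to 1788 CPM in Cre P278KY, against 757 to 4212 in Cre WT. The muscle ranges did not overlap and were lower where the hormones were high, the oligodendrocyte ranges overlapped, and the part of either in the hormone levels was not tested. The Cre WT oligodendrocyte sums were 757 and 1196 CPM in index set 1, and 3760 and 4212 in set 2. All 10 markers of each of these 2 lists were tested between the Cre groups, and 0 were called in either list. Summed Schwann and nerve root markers, also 10 genes, were lower without overlap, at 214 to 274 CPM in Cre P278KY, against 382 to 562 in Cre WT, and their part was not tested either. Of these 10, 2 were called lower (background 1.11% lower). Of 8 hepatocyte markers at most 3 had a read in a Cre P278KY library, their sum was at most 1.65 CPM there, and Alb, Apoc3, Serpina1a, Fgb and Tat had none. The 10 cholinergic motor neuron markers summed to 1514 to 1904 CPM in Cre P278KY, against 1638 to 2787 in Cre WT, with a read of every marker in all 7 libraries. Among these markers 1 was called lower and 0 higher, with a median log2 fold change of -0.25.

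Among the NoCre libraries, Fgf21 was the only one of the 4 to separate the genotypes. NoCre P278KY replicates 1 to 6 held 5, 11, 15, 1, 10 and 11 reads (0.333, 0.639, 1.12, 0.0611, 0.838 and 1.92 CPM), and the 5 NoCre WT libraries held none. Every mutant background library thus had Fgf21 reads and no WT background library had one, and 0.339% of the 17133 genes stood apart in this direction. A floor of 3 counts in the pooled NoCre WT group allows up to 0.0698 CPM there, and Fgf21 was at least 9.53-fold higher in NoCre P278KY. Gdf15 had 5 reads in the NoCre P278KY libraries together and 9 in NoCre WT, 7 of which came from replicate 4. Adm2 had 19 reads in NoCre P278KY, 15 of them in replicate 1, and 1 in NoCre WT. Stc2 overlapped, at 0.533 to 6.28 CPM in NoCre P278KY, against 1.39 to 3.50 in NoCre WT.

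Few genes were called by genotype among these background libraries: 4 of 17133 genes were called (0.0233%), 0 higher and 4 lower in NoCre P278KY. Library size as the only scaling called 1 higher and 1 lower, and DESeq2 5 higher and 23 lower; 1160 genes had an unadjusted p under 0.05 in edgeR and 1406 in DESeq2. Among the 4 lower ones were 2 of the 10 motor neuron markers, 1 of them Chat. It was at 2.88 ± 0.616 CPM in NoCre P278KY (SD, n = 6) and 7.90 ± 2.92 in NoCre WT (SD, n = 5), a log2 fold change of -1.45 ± 0.25 SE (edgeR, adjusted p = 0.034). The call was lost under 10 of 18 alternatives (adjusted p from 0.000205 to 0.999 over all 18), 7 of which leave out NoCre P278KY replicate 1, 2, 3, 4 or 5 or NoCre WT replicate 1 or 5 (0.0509 to 0.117). Summed motor neuron markers were 58.4 to 80.6 CPM in NoCre P278KY, against 90.5 to 120 in NoCre WT, so they lay lower in the libraries that held Fgf21 reads; their part in the Fgf21 difference was not tested.

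**Figure D3:**
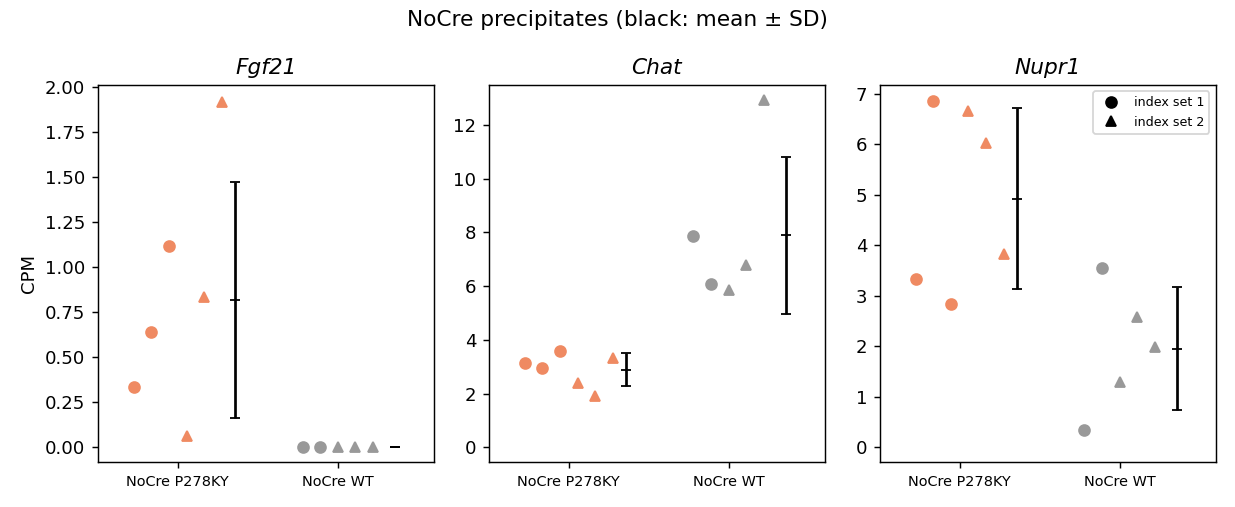
CPM of Fgf21, Chat and the stress regulator Nupr1 in the NoCre libraries (circles index set 1, triangles index set 2; black, mean ± SD). Fgf21 has reads in all 6 NoCre P278KY and in none of the 5 NoCre WT libraries, Chat lies lower in NoCre P278KY (2.88 against 7.90 CPM) and Nupr1 overlaps.

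Fgf21 lies at GRCm38 chr7:45613886-45615490 on the minus strand, and its neighbour Fut1, a fucosyltransferase gene, begins 1798 bases beyond its start on the plus strand, so the pair points away from each other. Fut1 was the neighbour that rose in Cre P278KY. It had 27, 35 and 23 reads in Cre P278KY replicates 1 to 3 (1.28, 1.43 and 1.58 CPM), against 0, 0, 1 and 0 reads in Cre WT replicates 1 to 4. The pooled ratio was 119 (counting interval 20.8 to 4753; edgeR quasi-likelihood test, adjusted p = 0.0037), and the call held in 13 of 13 alternatives, with an adjusted p of at most 0.0315. In NoCre P278KY Fut1 had 7 reads and in NoCre WT 5, and these groups overlap; the difference of its genotype effect with and without Cre missed the threshold (log2 6.69 ± 1.64 SE, adjusted p = 0.0592). Its level, 0.857 ± 0.220 TPM in Cre P278KY (SD, n = 3), was far below the 185 TPM of Fgf21. Bcat2, on the other side of Fgf21 at 24174 bases, was at 4.80 and 3.89 CPM in Cre P278KY and Cre WT (log2 fold change 0.34 ± 0.30 SE, adjusted p = 0.637).

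No tested neighbour of the other 3 genes passed the test. Gdf15 lies at chr8:70629393-70632456 on the minus strand, Adm2 at chr15:89322720-89324731 on the plus strand and Stc2 at chr11:31357307-31370074 on the minus strand (GRCm38). Next to Gdf15, Pgpep1 had a log2 fold change of 0.10 (adjusted p = 0.889), next to Adm2, Sbf1 of 0.16 (0.693), and next to Stc2, Bod1 of -0.53 (0.374, all edgeR). Lrrc25, Miox and Gm17332, the neighbours on the other side, had too few reads to be tested. No annotated gene overlaps any of the 4.

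Their coding sequences are all richer in G, C and glycine codons than the median gene. Across 21526 mouse genes the median is 51.8% G or C in the coding sequence and 6.03% glycine codons. Gdf15 has 66.4% G or C, Adm2 62.5%, Fgf21 58.6% and Stc2 57.1%. Glycine, the amino acid that Gars loads, takes 11.3% of the codons of Adm2, 8.57% of Fgf21, 8.11% of Stc2 and 6.60% of Gdf15, and the proteins are 150, 210, 296 and 303 residues long. The share of genes with a lower glycine percentage was 96.5% for Adm2, 85.1% for Fgf21, 80.8% for Stc2 and only 60% for Gdf15.

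Of the 12 transcription factors and cofactors listed as known regulators of such hormones, 11 were tested between the Cre groups, and 4 were higher and 0 lower in Cre P278KY. Over all genes tested 1.22% were higher; the median log2 fold change was 0.96 in the list and -0.01 over all genes. Atf4 was at 246, 181 and 228 CPM in Cre P278KY replicates 1 to 3, against 76.5, 92.5, 34.7 and 48.2 in Cre WT replicates 1 to 4 (log2 fold change 1.84 ± 0.30 SE, edgeR adjusted p = 0.0104). Ddit3, which encodes CHOP, a partner in the composite site, was at 30.1, 26.4 and 25.6 CPM in Cre P278KY, against 3.86, 4.37, 6.07 and 3.70 in Cre WT (2.63 ± 0.24, adjusted p = 0.000471). The groups did not overlap for either gene. Atf5, a close relative of Atf4, averaged 26.4 ± 2.86 CPM in Cre P278KY (SD, n = 3), against 3.55 ± 0.571 in Cre WT (SD, n = 4; log2 fold change 2.90 ± 0.23 SE, adjusted p = 0.000247). Nupr1, a small stress-induced chromatin cofactor, averaged 41.8 ± 3.12 CPM in Cre P278KY, against 2.02 ± 2.11 in Cre WT (4.30 ± 0.64 SE, adjusted p = 0.0104).

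None of the other 7 regulators tested passed the test. The log2 fold changes were 0.96 for Cebpg (adjusted p = 0.123), a binding partner of Atf4, 0.70 for Atf6 (0.163) and 0.43 for Xbp1 (0.391), which are sensors or effectors of endoplasmic reticulum stress, 0.40 for Trp53 (0.488), the p53 gene that induces Gdf15 after DNA damage, and 1.04 for the immediate early gene Egr1 (0.095, all edgeR). Cebpg and Atf6 missed the threshold though the Cre groups did not overlap, and 8.20% of genes stood apart in this direction. Cebpg was called under 2 of 13 alternatives, index set 1 alone (edgeR, adjusted p = 0.00528) and DESeq2 (0.0317). Atf6 was called under 1 of 13, index set 1 alone (edgeR, adjusted p = 0.024). Ppara, the fasting factor that drives Fgf21 in liver, was at 0.306 CPM in Cre P278KY, against 0.307 in Cre WT, and had too few reads to be tested. Calls for Ddit3 and Atf5 held in 13 of 13 alternatives, the call for Atf4 was lost without Cre P278KY replicate 1 (adjusted p = 0.0866) or 3 (0.0598), and that for Nupr1 under 5 alternatives (0.0501 to 0.0799), among them those without Cre P278KY replicate 1, Cre P278KY replicate 2 or Cre WT replicate 3.

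For 3 of these regulators the genotype effect with Cre differed from that without. None of the 12 was called among the NoCre libraries, with log2 fold changes of -0.00 for Atf4 (adjusted p = 0.999), -0.29 for Ddit3 (0.812), -0.13 for Atf5 (0.911) and 1.38 for Nupr1 (0.687, all edgeR). The difference between the genotype effects with and without Cre was called for Atf5 (3.01 ± 0.38 SE, adjusted p = 0.00027), Ddit3 (2.88 ± 0.41, 0.000591) and Atf4 (1.80 ± 0.37, 0.0201), and missed the threshold for Nupr1 (2.96 ± 0.75, 0.0765). Of all genes, 112 were called for this difference (0.654%), 59 higher (0.344%) and 53 lower (0.309%), or 150 higher and 232 lower by DESeq2. With library size as the only scaling none of the 3 was called (adjusted p = 0.0609 for Atf5, 0.16 for Ddit3 and 0.232 for Atf4), and Atf4 was also lost without Cre P278KY replicate 1 (0.083) or 3 (0.0636) and without NoCre WT replicates 4 and 5 together (0.0733).

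**Figure D4:**
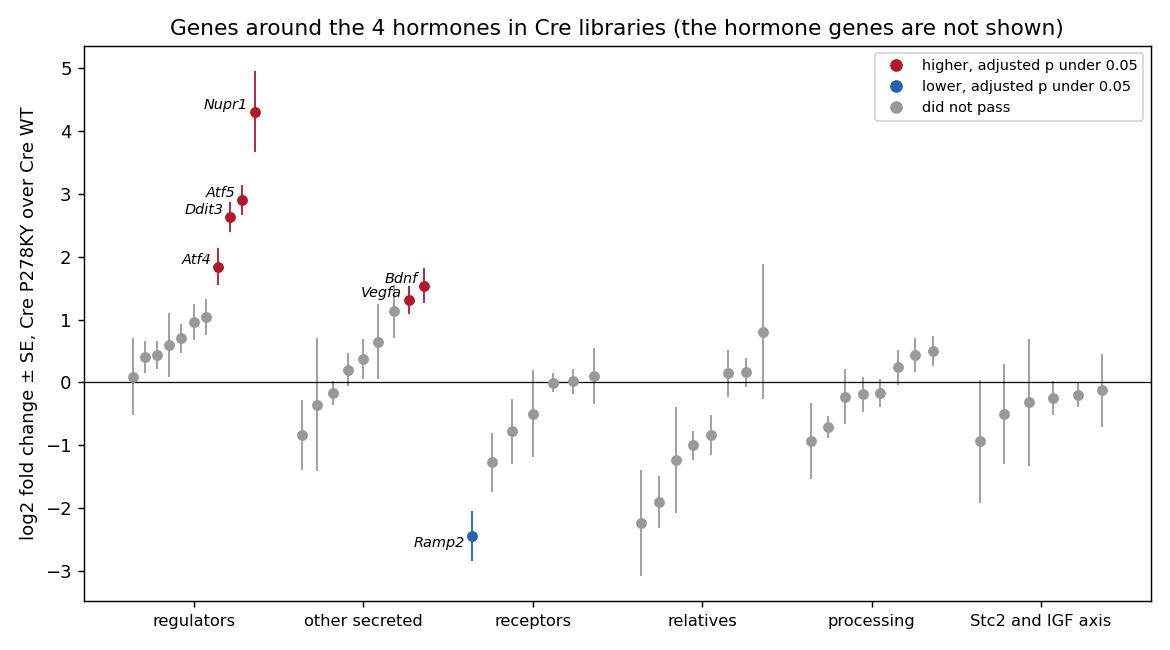
Log2 fold change ± SE, Cre P278KY over Cre WT (edgeR), of the tested genes of 6 lists around the 4 hormones, sorted within each list; red and blue passed an adjusted p of 0.05. The 4 regulators Atf4, Ddit3, Atf5 and Nupr1 and the secreted factors Vegfa and Bdnf are higher, and Ramp2 is lower.

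No receptor of these hormones passed the test as higher. Of 11 listed receptor genes 7 were tested, and 0 were higher and 1 lower (background 1.11% lower), with a median log2 fold change of -0.49. Ret, the signalling partner of Gfral and a motor neuron marker, was at 314 ± 71.1 CPM in Cre P278KY (SD, n = 3), against 316 ± 22.1 in Cre WT (SD, n = 4; log2 fold change 0.02 ± 0.20 SE, adjusted p = 0.977). Fgfr1 was at 91.1 and 92.9 CPM in Cre P278KY and Cre WT (-0.00 ± 0.16 SE, adjusted p = 0.998). RNA of both signalling receptors thus came down in both groups, while that of the partners that confer binding was scarce. Klb had 6, 9 and 8 reads in Cre P278KY replicates 1 to 3 and 6, 0, 7 and 1 in Cre WT replicates 1 to 4. Its level overlapped the background, at 0.400 ± 0.135 CPM in Cre P278KY (SD, n = 3) and 0.303 ± 0.245 in NoCre P278KY (SD, n = 6).

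Gfral, the receptor that binds Gdf15, was uneven. It had 54, 84 and 0 reads in Cre P278KY replicates 1, 2 and 3 (2.56, 3.43 and 0 CPM), against 0, 0, 2 and 0 in Cre WT replicates 1 to 4. Between 0 and 2 reads were found in each of the 11 NoCre libraries. With no reads in 1 of 3 libraries the gene did not pass the filter on low counts and was not tested, and the Cre P278KY values overlap those of Cre WT at 0.

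Ramp2, which makes Calcrl a receptor for adrenomedullin peptides, fell. It was at 2.04, 2.57 and 2.06 CPM in Cre P278KY replicates 1 to 3, against 13.1, 21.6, 6.58 and 9.04 in Cre WT replicates 1 to 4 (log2 fold change -2.44 ± 0.40 SE, edgeR adjusted p = 0.0112). In NoCre libraries Ramp2 was at 5.27 ± 1.93 CPM in P278KY (SD, n = 6) and 5.52 ± 2.74 in WT (SD, n = 5). The call was lost without Cre P278KY replicate 1, 2 or 3 (adjusted p = 0.0942, 0.0592 and 0.0782). Endothelial and mural markers, 10 genes of a cell type that also makes Ramp2, summed to 30.8 to 62.5 CPM in Cre P278KY. In Cre WT replicates 1 to 4 they summed to 31.6, 34.55, 144 and 182 CPM, so they were low in the replicates with the most Ramp2. Their part in the result was not tested. Calcrl itself was at 2.63 ± 0.717 CPM in Cre P278KY, against 3.63 ± 2.97 in Cre WT (SD, n = 3 and 4). Its mean was higher without the tag, at 12.6 ± 3.52 CPM in NoCre P278KY and 7.51 ± 3.80 in NoCre WT (SD, n = 6 and 5).

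No close relative of the hormones passed the test: of 12 genes 8 were tested, 0 were called and the median log2 fold change was -0.92. Adm, the nearest relative of Adm2, was at 0.317 ± 0.0968 CPM in Cre P278KY, against 0.408 ± 0.0680 in Cre WT. Stc1, the nearest relative of Stc2, was at 0.554 ± 0.567 CPM in Cre P278KY, against 0.283 ± 0.260 in Cre WT (SD, n = 3 and 4). Adm had too few reads to be tested, and Stc1 missed the threshold (0.81 ± 1.07 SE on the log2 scale, adjusted p = 0.775). Both means were higher without the tag: in NoCre P278KY and NoCre WT, Adm was at 0.636 and 1.03 CPM and Stc1 at 1.49 and 4.61. Calca, which encodes CGRP, a peptide of the Adm2 family that motor neurons make, was at 152, 69.7 and 77.5 CPM in Cre P278KY replicates 1 to 3, against 528, 561, 219 and 238 in Cre WT replicates 1 to 4 (log2 fold change -1.90 ± 0.42 SE, adjusted p = 0.0512). It missed the threshold, though the groups did not overlap, as did Gdf11 (-1.0 ± 0.23, adjusted p = 0.0518); 8.45% of genes stood apart in this direction. Calca was called under 4 of 13 alternatives, among them those without Cre WT replicate 3 (adjusted p = 0.0309) or 4 (0.0427), and Gdf11 under 5 of 13, among them that without Cre WT replicate 2 (0.0274). Calca was apart in the background too, at 3.14 ± 2.07 CPM in NoCre P278KY (SD, n = 6), against 9.44 ± 0.796 in NoCre WT (SD, n = 5), as were 0.379% of genes (adjusted p = 0.363).

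RNA for the enzymes that ready such peptides for release was found in both Cre groups, and in the NoCre libraries too. Of 9 processing genes 8 were tested and 0 were called. Cpe, a carboxypeptidase of secretory granules, was at 376 and 283 CPM in Cre P278KY and Cre WT (log2 fold change 0.44 ± 0.27 SE, adjusted p = 0.466). Pam, the enzyme that amidates peptides such as Adm2, was at 50.2 and 57.1 CPM (-0.16 ± 0.22, adjusted p = 0.78), and the convertase gene Pcsk2 at 78.4 and 131 CPM (-0.71 ± 0.18, adjusted p = 0.0748), in the same order of groups. Pcsk2 missed the threshold though the Cre groups did not overlap, and 8.45% of genes stood apart in this direction. It was called in index set 1 alone (edgeR, adjusted p = 0.0194) and by DESeq2 (0.00858). Without the tag, in NoCre P278KY and NoCre WT, Cpe was at 292 and 318 CPM, Pam at 43.7 and 36.5 and Pcsk2 at 55.8 and 53.4. Cpe overlapped this background in both genotypes, and Pam did in P278KY mice. The list for Stc2 and the insulin-like growth factors holds 6 genes, for the pregnancy-associated proteases, Igf1, its receptor and binding proteins. All 6 were tested and 0 were called. Pappa, the protease that Stc2 blocks, was at 52.5 and 63.7 CPM in Cre P278KY and Cre WT (-0.25 ± 0.27, adjusted p = 0.709), and Igf1r at 12.4 and 14.5 CPM (-0.19 ± 0.20, 0.693, all edgeR). In NoCre P278KY and NoCre WT, Pappa was at 8.20 and 10.55 CPM and Igf1r at 21.6 and 26.4.

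Among 16 other secreted stress or trophic factors 9 were tested, and 2 were higher and 0 lower (background 1.22% higher), with a median log2 fold change of 0.37. Vegfa, the vessel growth factor, was at 30.4, 33.2 and 32.6 CPM in Cre P278KY replicates 1 to 3, against 10.7, 17.2, 15.5 and 9.55 in Cre WT replicates 1 to 4 (log2 fold change 1.31 ± 0.22 SE, edgeR adjusted p = 0.0128). Vegfa was abundant in the background too, at 26.2 ± 4.53 CPM in NoCre P278KY (SD, n = 6) and 25.5 ± 4.30 in NoCre WT (SD, n = 5). Bdnf, a neurotrophin, was at 18.9, 17.0 and 12.7 CPM in Cre P278KY, against 8.03, 4.37, 5.67 and 4.69 in Cre WT (1.54 ± 0.28 SE, adjusted p = 0.0193). Both calls were lost with library size as the only scaling (0.0989 for Vegfa and 0.0763 for Bdnf), Vegfa also without Cre P278KY replicate 1, 2 or 3 (0.064 to 0.0932), and Bdnf without Cre P278KY replicate 1, Cre P278KY replicate 2 or Cre WT replicate 4 (0.0529 to 0.141). Il6 had no reads in the Cre libraries, and Lif, Gdnf, Igfbp1, Angptl4, Areg and Nppb had too few to be tested.

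Across the 18 libraries the 4 genes followed one another, which is a description of points that share 4 groups and rests on the 3 Cre P278KY libraries. Pearson's r of log2 CPM was 0.91 between Fgf21 and Adm2, 0.85 between Gdf15 and Adm2, 0.83 between Fgf21 and Gdf15 as well as between Fgf21 and Stc2, 0.77 between Gdf15 and Stc2 and 0.73 between Adm2 and Stc2. The nearest genes were sought among those that passed the filter, without the hormone genes, predicted genes, clones, pseudogenes, mitochondrial transcripts and repeated symbols. Of these the pattern most like that of Fgf21 was Cdsn, a corneodesmosome gene, with r = 0.96. Cdsn had mean levels of 37.7 CPM in Cre P278KY, 0.126 in Cre WT, 0.781 in NoCre P278KY and 0.158 in NoCre WT. It was followed by Akr1b7 (0.92), Ina (0.92), B4galnt2 (0.91) and Tra2a (0.90). For Gdf15 the order was B4galnt2 (0.93), the cationic amino acid transporter gene Slc7a3 (0.93), Atf5 (0.92), Akr1b7 (0.92) and Dhrs3 (0.90). For Adm2 it was Ostn (0.97), the gene of the secreted peptide osteocrin, with 7.13 CPM in Cre P278KY, 0 in Cre WT, 0.168 in NoCre P278KY and 0.0304 in NoCre WT on average, then Steap1 (0.95), Akr1b7 (0.94), Fev (0.93) and Cdsn (0.93). For Stc2 it was Pycr1 (0.90), an enzyme of proline synthesis, Dach2 (0.88), Rnf220 (0.87), Scn2b (0.87) and the amino acid transporter gene Slc7a1 (0.87). Akr1b7 is in the nearest 5 of 3 of the hormone genes, and no gene nearest to Stc2 is in the nearest 5 of another.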

How the data were processed

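Each of 18 libraries is 1 mouse, grouped by the genotype in the labels. The authors deposited a gene table per library with expected counts, TPM, FPKM and transcript lengths in bases, per the file headers those of RSEM. Per the submitters' processing notes, Bowtie2 2.2.0 and RSEM 1.2.12 were used; the genome build and strand setting were not given in these sources. Expected counts were rounded to whole numbers. Deposited TPM values set levels between genes; deposited FPKM values were not used. Of 38924 gene identifiers, 37607 are in GENCODE M21 (GRCm38), the source of positions and transcripts.

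The genotype effect among Cre libraries was fitted on 7 libraries, the others on 18 with 4 group means, using R 4.3.3 and edgeR 4.0.16 (two-sided quasi-likelihood test, robust, TMM factors, filterByExpr), Benjamini-Hochberg over all genes tested, threshold 0.05; DESeq2 1.42.0 was an alternative. CPM uses the factors of the 18-library fit. All 4 hormone genes passed the filter, Fgf21, Gdf15 and Adm2 through the group where they are high. The members and lists were chosen with earlier results of these data known. Genes named are the 4, Gars, Rpl22, Chat, the receptors and nearest relatives, the neighbours, and each list's called genes and 3 most abundant others. Also named are the 5 genes of highest Pearson r after the exclusions given above. Trp53, Egr1, Ppara, Slc5a7, Prph, single hepatocyte markers and the secreted factors with too few reads were added after their values were seen. Left out in turn were each replicate, the filter, TMM and index set 2. The fits were tested on simulated data. Rpl22 was at 34.7 ± 0.0757 CPM in Cre P278KY (SD, n = 3), against 32.8 ± 9.76 in Cre WT (SD, n = 4).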

Additional observations from a re-analysis of the deposited data

Results flagged for a closer look

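A library stood apart from the rest of its group in 23 of 127 gene and group pairs, by its gap to the nearest library over the group's range. Cre P278KY libraries were not checked in this way, so no flag could fall on them. The limits used assume normally distributed values, with a rate of about 5%. That rate does not hold for scarce reads, since a group with reads in only 1 library is always flagged. The flagged libraries of the hormone genes were all from groups other than Cre P278KY, the only groups checked. Gdf15 reached 0.129 CPM in Cre WT replicate 4, 0.335 in NoCre P278KY replicate 5 and 1.40 in NoCre WT replicate 4, against at most 0, 0.0611 and 0.199 CPM in the other libraries of each group. Adm2 reached 0.999 CPM in NoCre P278KY replicate 1 (next 0.149), whose skeletal muscle markers summed to 550.8 CPM, and 0.101 in NoCre WT replicate 2 (next 0). Stc2 was at 6.28 CPM in NoCre P278KY replicate 6 (next 2.01), whose hepatocyte markers summed to 23.2 CPM. The part of these markers was not tested. In reads and TPM that library was nearer the rest, with 36 reads (1.18 TPM), against 28 (0.89 TPM) in NoCre P278KY replicate 2. By TPM the gap of Gdf15 in NoCre WT replicate 4 was smaller too (0.49, against 0.3 in NoCre WT replicate 3). The part of the scaling was not tested.

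Chat was at 12.9 CPM in NoCre WT replicate 5 (next 7.86). In NoCre WT replicate 4 Klb was at 0.598 CPM, Gfral at 0.399, Adm at 2.39, Pam at 43.6, Bcat2 at 7.17 and Miox at 0.199. In NoCre P278KY replicate 6 Csf1 was high at 40.4 CPM, and Ramp2 (1.57), Pam (32.1) and Bdnf (0.872) were low. In NoCre P278KY replicate 4 Bcat2 was at 3.79 CPM and Lrrc25 at 0.611, and in NoCre WT replicate 3 Pgpep1 was at 8.65. Among Cre WT libraries Nupr1 was at 5.16 CPM in replicate 4 (next 1.37), and replicate 3 held the only reads of Gfral (0.0609 CPM) and Fut1 (0.0305).

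The P278KY effect differed between Cre and NoCre libraries for Atf5 by 3.01, for Ddit3 by 2.88 and for Atf4 by 1.80 on the log2 scale (edgeR interaction test, adjusted p = 0.00027, 0.000591 and 0.0201).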

How the results depend on the processing

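Of 248 alternative values for the differences of the 4 hormone genes, 243 moved by less than 1 SD and 6 took the opposite sign, all where the groups overlap: Gdf15 without NoCre WT replicate 4 (0.06, against -0.57) and Stc2 under the replicate block (0.58, against -0.36) between the NoCre groups, and Stc2 between Cre WT and NoCre WT in 4 alternatives (0.07 to 0.22, against -0.14; library size only, the replicate block, and without NoCre WT replicate 5 alone or with 4). Between the Cre groups none changed sign, and the differences ran from 8.40 to 9.36 for Fgf21, 5.67 to 6.34 for Gdf15, 6.56 to 7.04 for Adm2 and 2.76 to 3.40 for Stc2 (log2 CPM). Library size as the only scaling called 148 genes between the Cre groups, 2 between the NoCre groups and 5 for the difference of effects, and shifted the median log2 fold change to 0.354 between the NoCre groups, where Chat was then at -1.07 (adjusted p = 0.71). It called 4825 genes higher and 3336 lower with Cre in WT mice, against 4877 and 5352 with TMM. DESeq2 called 972, 28 and 382 genes in the first 3 comparisons, and index set 1 alone 1343 between the Cre groups. The replicate block, on the first part of the mouse number, called 1664 genes between the Cre groups and 2 between the NoCre groups. The 5 larger moves of the hormone genes were all under it. That first part did not pair the mice (median r -0.01 over 12 pairs). Among Cre libraries only Cre P278KY replicates 1 and 3 and Cre WT replicates 3 and 4 share a first part. The blocked test between the Cre groups, 1 of the 13 alternatives there, thus compares only those libraries. It also compares index set 1 with index set 2. Leaving out 1 replicate gave 95 to 324 genes between the Cre groups (95, 121 and 126 without Cre P278KY replicates 1, 2 and 3), 2 to 6 between the NoCre groups and 41 to 250 for the difference of effects (lowest without Cre P278KY replicate 1, highest without Cre WT replicate 1). Without NoCre WT replicates 4 and 5, chosen after the data were seen, 2 genes were called between the NoCre groups. Of 3118 alternative values of 36 named genes 2973 kept their call, 76 lost it, 68 gained it, and Igfbp5 was called with the opposite sign in index set 1 alone (2.07, adjusted p = 0.00597, against -0.32). Another 166 values took the opposite sign without being called on either side. The cause was not tested in any of these. Genes with a few reads a group, such as Gdf15 and Adm2 outside Cre P278KY, are limited by depth.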
